A study of Mus musculus with 24 samples.

Results

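Chemokines and their receptors were followed through the mouse lacrimal gland (LG) and cultured lacrimal gland stem cells (LGSCs). A gene was a member when its GENCODE mouse symbol was Ccl, Cxcl, Ccr or Cxcr with a number, or was Xcl1, Xcr1, Cx3cl1, Cx3cr1 or Ackr1 to Ackr4, with pseudogenes left out. The rule found 67 members among the 63862 genes listed, of which 44 were ligands, 19 signalling receptors and 4 atypical receptors. The members carried 62 distinct symbols, because Ccl19, Ccl21a, Ccl21b and Ccl27 have near-identical copies, and 7 members lie on unplaced scaffolds. Reads of such copies could have been split by the counting, so their levels are uncertain.

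All libraries came from C57BL/6 mice with no allele named. LGSC spheres had been grown from single cells of LGs of mice aged 6 to 8 weeks, in Matrigel with serum-free medium that contained EGF, FGF10, Wnt3A and the ROCK inhibitor Y-27632, and were sequenced at passage 2 after 5 days (2 libraries), 7, 10 and 14 days (3 libraries each) of culture. The tissues were adult LG, embryonic LG at E17.5 and embryonic LG at E19.5, with 3 libraries each, where E gives the embryonic day. The labels do not say how many animals or cultures stand behind a library, so p-values measure the spread between these libraries, which may be partly technical.

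Chemokines are small secreted proteins that guide cells carrying the matching receptor along a concentration gradient. The receptors span the membrane and couple to inhibitory G proteins, while the atypical receptors bind chemokines without that coupling and take them up or carry them across a cell layer. In glands, epithelial cells release chemokines that attract neutrophils, antibody-secreting cells and T cells, stromal and endothelial cells release others, and most receptors are carried by leukocytes.

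FPKM values, which divide fragments by the length of the gene and by the size of the library, allow genes to be set side by side. The reads recovered from the steps of the values numbered 6434734 to 9258020 in a library, and intervals on them would cover counting error only. In adult LG replicates 1 and 2, 60.4% and 59.6% of reads came from the top 10 genes, compared with 31.3% in adult LG replicate 3 and 5.4% to 8.1% elsewhere. Recovered reads exceeded the scale of the deposited values 2.667 and 2.567 times in those 2 libraries, against 0.832 to 1.129 times in the others. Scaling to recovered reads therefore moved the median log2 difference of all genes from 0.05 to 0.64 at E17.5 against adult LG, from 0.09 to 0.58 at E19.5 and from -0.08 to 0.60 for day 7 spheres. Of 17 leukocyte markers, Ptprc, the pan-leukocyte phosphatase, was at 3.64, 6.18 and 5.99 FPKM in adult LG, 1.17 to 1.34 at E17.5, 1.51 to 1.61 at E19.5 and 0 to 0.0489 in the spheres. The summed level of the list was 80.5 to 332.8 FPKM in adult LG, 15.3 to 19 at E17.5, 32.7 to 39.3 at E19.5 and 23.3 to 372.7 in the spheres. Cd14 made up most of it in the spheres and in adult LG (45.4, 68 and 267.8 FPKM). Without Cd14 and S100a8 the list came to 0.332 to 2.95 FPKM in the spheres, 34.6 to 64.8 in adult LG, 12.2 to 15.6 at E17.5 and 23.2 to 26.6 at E19.5. Cd68 and S100a9 of that list were at 0 in all 20 libraries. The summed fibroblast markers came to 0.263 to 1.41 FPKM in the spheres, 142.5 to 277 in adult LG and 4192.4 to 5115.4 in embryonic LG, and the summed endothelial markers to 0.00732 to 0.273, 36.4 to 104.5 and 105.3 to 174.3 FPKM. The epithelial markers Epcam and Krt8 were listed at 0 in all 20 libraries although a sphere library of passage 10 held 261.3 and 413.8 FPKM, and Cdh1 and Krt18 carried that list. Krt14, a basal and stem cell marker, was at 0.236 to 17.8 FPKM in the 20 libraries and at 7065.3 in the passage 10 library. A value of 0 is therefore reported only as listed at 0, and a low value is uncertain too. In bulk libraries, fewer cells of a type and less RNA per cell cannot be told apart.

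Of the 67 members, 56 were above 0 in some library, 40 reached an average of 1 FPKM in some group and 11 were listed at 0 in all 20 libraries. The number of members that averaged 1 FPKM or more was 9, 11, 14 and 17 in spheres at day 5, 7, 10 and 14, 20 at E17.5, 22 at E19.5 and 30 in adult LG. The matching share of all genes was not computed, so these counts are not a result about chemokines. The adult count also rests on deposited values that, in replicates 1 and 2, would be lower if scaled to recovered reads. The highest means were those of Cxcl5 at day 14 (469.5 ± 305.1 FPKM, SD, n = 3), Cxcl17 (253.8 ± 105.6), Ccl28 (184.8 ± 119.2), Ccl9 (172.1 ± 59.7) and Cxcl14 (115.6 ± 71.6) in adult LG, and Cx3cl1 at day 14 (94.2 ± 53.1).

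**Figure D1:**
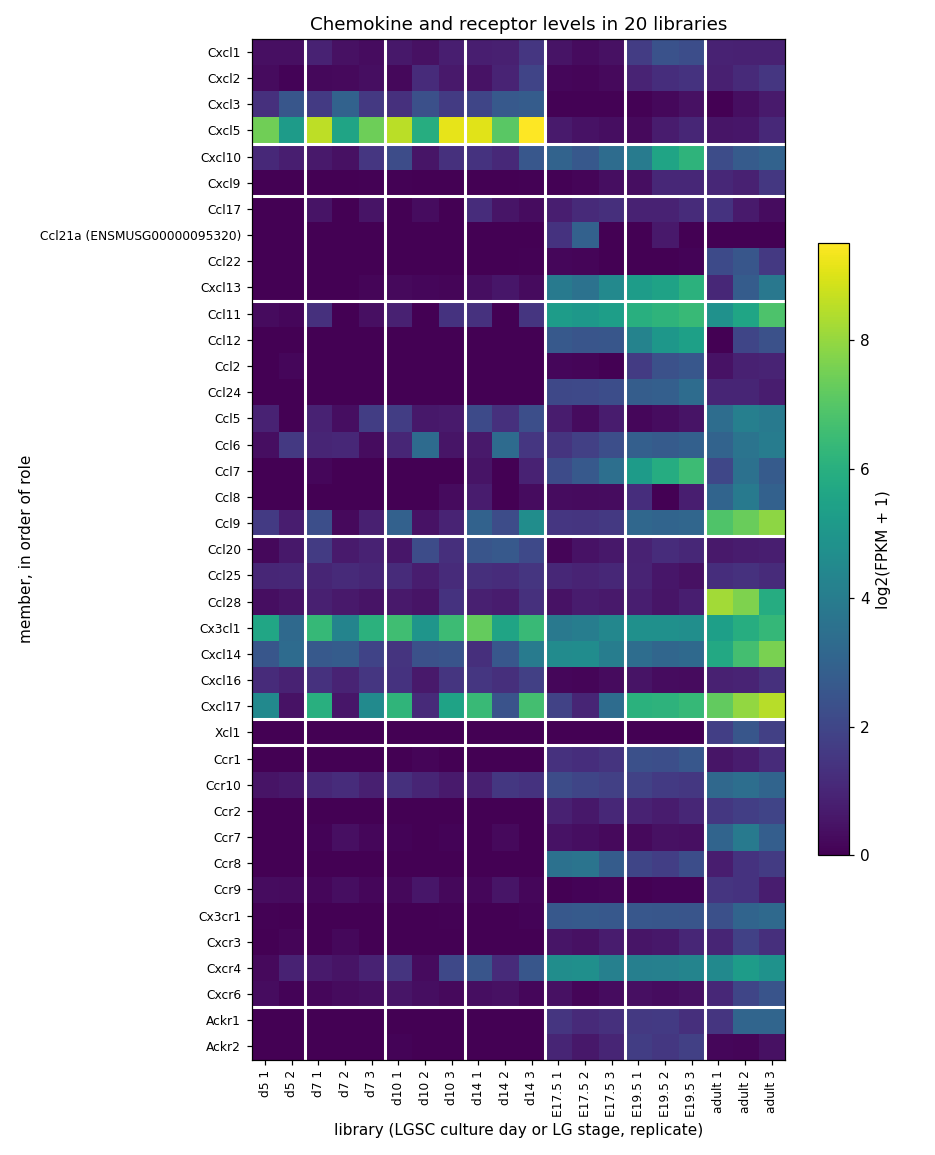
Heat map of log2(FPKM + 1) for members that averaged 1 FPKM or more in some group (rows, in order of role, with white lines between roles) in 20 libraries (columns, by LGSC culture day or LG stage and replicate). The row of Cxcl5 was bright only in the sphere columns, the rows of Ccl28 and Ccl9 in the adult columns, and most receptor rows were dark in the spheres.

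The ELR CXC ligands carry a glutamate-leucine-arginine motif and attract neutrophils through Cxcr2. Cxcl5 (chr5:90759360-90761624, GRCm38) was at 174.5 and 36.5 FPKM in the 2 day 5 libraries, 380.4, 46.2 and 168.6 on day 7, 364.3, 59.7 and 575.2 on day 10 and 545.6, 133.5 and 729.4 on day 14. In adult LG it was at 0.445, 0.508 and 1.13 FPKM, and in embryonic LG between 0.184 and 1.03. Every sphere library was above every tissue library, and replicate 2 was the lowest of each culture day. At day 7 Cxcl5 exceeded adult LG by a log2 fold change of 6.44 ± 0.72, adjusted p = 0.00132, where the error after ± is a standard error (3 against 3 libraries).

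Cxcl3, another of these ligands, was at 1.51 and 4.85 FPKM on day 5, 2.04, 6.91 and 1.98 on day 7, 1.49, 4.05 and 2.15 on day 10 and 2.92, 5.24 and 5.85 on day 14. It was at 0, 0.271 and 0.6 FPKM in adult LG and between 0.0297 and 0.328 in embryonic LG, so that passage 2 sphere and tissue libraries did not overlap. A single passage 10 sphere library held 0.24 FPKM of Cxcl3, within the adult range. Day 7 exceeded adult LG by 1.71 ± 0.43, adjusted p = 0.0225, a call lost without adult LG replicate 1 or 2 (adjusted p 0.0682 to 0.0686). In the listed values the passage 2 spheres did not share this pattern for Cxcl1 and Cxcl2, the ligands most often induced by inflammatory cytokines. The single passage 10 library held 48.6 and 42.8 FPKM of them, so their low passage 2 values are uncertain. Cxcl1 was at 0.884, 0.841 and 0.839 FPKM in adult LG, 0.411, 0.221 and 0.333 at E17.5, 2.26, 4.27 and 3.74 at E19.5 and between 0.238 and 1.86 in the 11 sphere libraries. The 3 E19.5 libraries lay above every other one of the 20 libraries compared. E19.5 exceeded E17.5 by 1.72 ± 0.19, adjusted p = 0.00650 and adult LG by 1.22 ± 0.19, adjusted p = 7.3e-04. Cxcl2 was at 0.802, 1.22 and 1.84 FPKM in adult LG, 0.124, 0.1 and 0.181 at E17.5, 0.94, 1.4 and 1.66 at E19.5 and between 0.0713 and 2.91 in the spheres. It was lower at E17.5 than in adult LG (-0.99 ± 0.19, adjusted p = 0.00277) and higher at E19.5 than at E17.5 (1.03 ± 0.19, adjusted p = 0.0428), but the first call was lost with values scaled to recovered reads and the second in 7 of 9 fits that left out 1 library (adjusted p 0.0626 to 0.182). Cxcl15 stayed at or under 0.366 FPKM in all 20 libraries.

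The upstream sequence of 4 of these inflammatory ligands is shown because Cxcl1, Cxcl2 and Cxcl3 lie together on chromosome 5 and differed in where they were high. RefSeq promoters (GRCm38.p6) were matched by symbol for 46 of the 62 member symbols. The sequences run 5′ to 3′ up to the base before the start site, on the strand of the gene, and capitals mark matches to the NF-kappaB consensus on either strand, with overlapping matches joined. Ccl28, which carried no match, is set below them. Of members not shown, Ccl9, also high in adult LG, held a match with its first base 35 bases before the start site, while Cxcl9 held none.
Cxcl1, chr5:90891095-90891244, plus strand: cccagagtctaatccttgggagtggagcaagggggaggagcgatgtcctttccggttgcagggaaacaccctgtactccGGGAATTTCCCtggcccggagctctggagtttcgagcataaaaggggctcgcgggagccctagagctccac
Cxcl2, chr5:90903749-90903898, plus strand: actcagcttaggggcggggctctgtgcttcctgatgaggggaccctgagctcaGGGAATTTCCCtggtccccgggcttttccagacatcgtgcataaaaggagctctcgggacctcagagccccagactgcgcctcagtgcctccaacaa
Cxcl3, chr5:90785951-90786100, plus strand: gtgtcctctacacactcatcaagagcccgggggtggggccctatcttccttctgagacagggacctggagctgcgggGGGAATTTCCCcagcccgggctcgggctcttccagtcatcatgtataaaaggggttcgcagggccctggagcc
Cxcl10, chr5:92348890-92349039, minus strand: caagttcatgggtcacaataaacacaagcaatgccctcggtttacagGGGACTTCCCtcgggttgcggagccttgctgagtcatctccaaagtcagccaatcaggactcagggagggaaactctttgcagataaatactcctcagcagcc
Ccl28, chr13:119623669-119623818, plus strand: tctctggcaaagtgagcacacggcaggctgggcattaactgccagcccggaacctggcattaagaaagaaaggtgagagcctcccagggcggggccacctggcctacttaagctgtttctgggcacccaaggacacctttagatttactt
Cxcl1, Cxcl2 and Cxcl3 held the same 11 bases, GGGAATTTCCC, with the first base 71, 97 and 73 bases before the start site. The 46 member symbols had 53 promoters. Over the 250 bases before the start site, the consensus was found in 9 of these 53 and in 3.9% of all 32851 promoters of the table. TATAAA, on either strand, was found in 15 of the 53 and in 12.4% of all promoters. Cxcl5 and Cxcl17 were not in the table. A match is a description of these letters, and the shared letters went with levels that differed between the 3 genes.

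**Figure D2:**
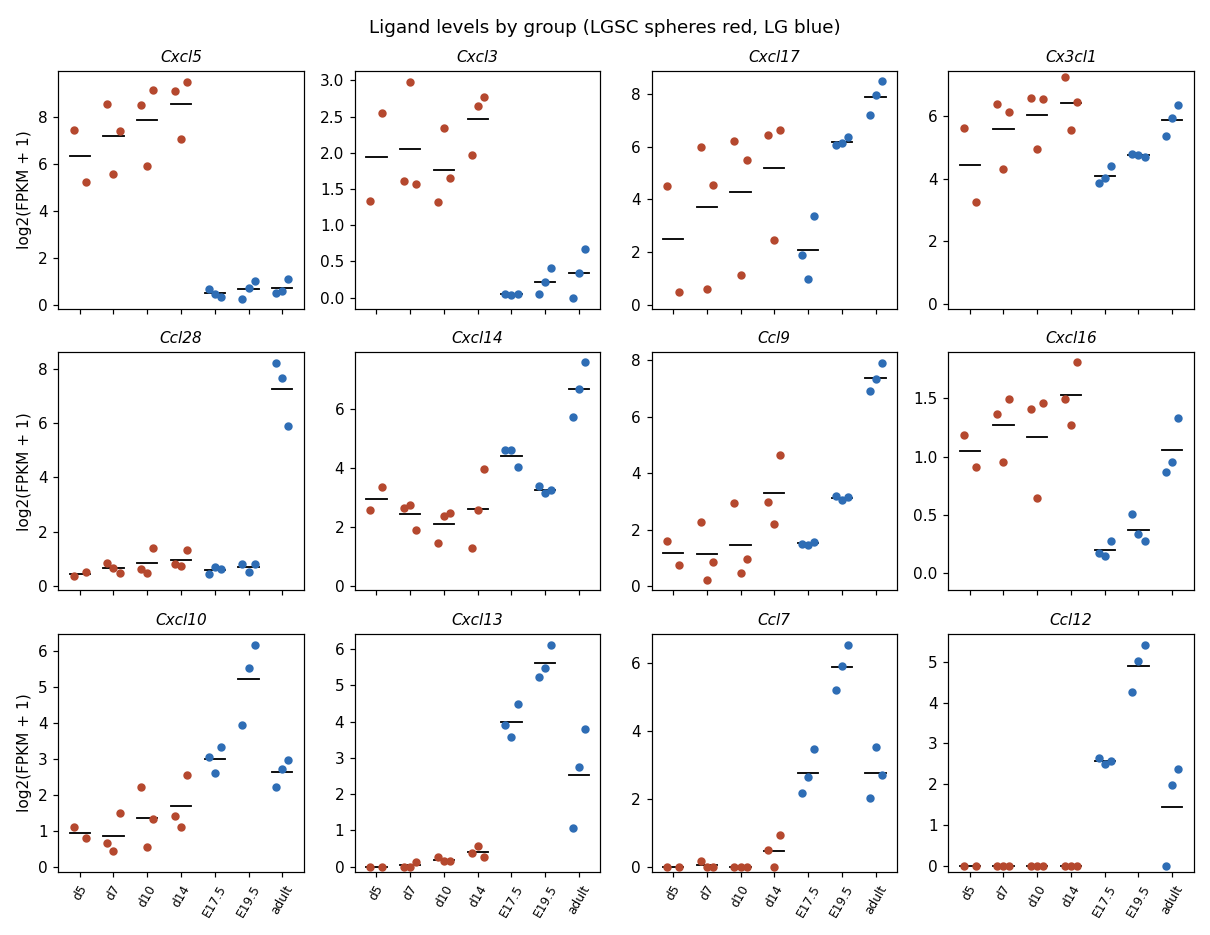
Levels of 12 ligands as log2(FPKM + 1) in each library (points, red for LGSC spheres by culture day and blue for LG by stage) with the group mean (black line), each panel on its own vertical scale. Cxcl5 and Cxcl3 were high in spheres, Ccl28 and Ccl9 in adult LG, and Ccl7 and Ccl12 at E19.5.

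Among the epithelial and mucosal ligands, Ccl28, which attracts antibody-secreting cells to mucosal surfaces and glands, had the largest log2 difference between embryonic and adult LG. Ccl28 (chr13:119623819-119654359) was at 294.4, 202.1 and 57.9 FPKM in adult LG replicates 1 to 3, against 0.371, 0.643 and 0.568 at E17.5 and 0.756, 0.436 and 0.737 at E19.5. The spheres held between 0.291 and 1.65 FPKM. Only the adult libraries were high, and none of the other 17 libraries reached 2 FPKM. The log2 fold change was -6.64 ± 0.50, adjusted p = 1.5e-05 at E17.5, -6.54 ± 0.50, adjusted p = 1.9e-05 at E19.5 and -6.58 ± 0.58, adjusted p = 5.9e-04 for day 7 spheres, each against the same 3 adult libraries. Ccr10, the receptor of Ccl28, was at 8.17, 9.87 and 7.29 FPKM in adult LG, 3.65, 2.95 and 2.46 at E17.5, 2.65, 2.06 and 1.92 at E19.5 and between 0.409 and 1.89 in spheres. It was lower than in adult LG at E17.5 (-1.23 ± 0.17, adjusted p = 4.1e-04), at E19.5 (-1.55 ± 0.17, adjusted p = 1.3e-04) and in day 7 spheres (-2.20 ± 0.21, adjusted p = 7.8e-04). Under the scaling to recovered reads the E17.5 call was lost.

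Cxcl17, a mucosal ligand that attracts myeloid cells, had the highest mean of the members in adult LG, although Ccl28 was above it in adult LG replicate 1. Cxcl17 (chr7:25400053-25412886) was at 149.3, 251.6 and 360.4 FPKM in adult LG, 2.7, 0.954 and 9.36 at E17.5 and 66.4, 70 and 81.4 at E19.5. In spheres it was at 22.1 and 0.387 FPKM on day 5, 62.6, 0.504 and 22.4 on day 7, 72.9, 1.19 and 44.5 on day 10 and 86.8, 4.43 and 99.6 on day 14. The tissue groups did not overlap and were ordered E17.5, E19.5, adult, while in the spheres the second library of each day lay far under the others. E17.5 LG was lower than adult LG, at -5.83 ± 0.56, adjusted p = 5.1e-05, and E19.5 exceeded E17.5 by 4.12 ± 0.56, adjusted p = 0.0156, a call lost without E17.5 replicate 1 or E19.5 replicate 2 or 3 (adjusted p 0.0744 to 0.0846) and by limma-voom. The difference between E19.5 and adult LG (-1.71 ± 0.56, adjusted p = 0.0300) was lost without adult LG replicate 2 or 3 or any E19.5 library (adjusted p 0.0624 to 0.0792), and that between day 7 and adult LG (-4.19 ± 1.31, adjusted p = 0.0471) without day 7 replicate 3 or any adult library (adjusted p 0.0861 to 0.118).

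Cx3cl1 (fractalkine), a membrane-tethered ligand that holds and attracts monocytes, macrophages and T cells, was present in every library. It was at 48.2 and 8.48 FPKM on day 5, 81.9, 18.7 and 68.2 on day 7, 94.5, 30 and 91.3 on day 10 and 150.8, 45.5 and 86.3 on day 14. Tissue values were 40.1, 60.3 and 80.3 FPKM in adult LG, 13.4, 15.4 and 20.3 at E17.5 and 26.4, 26.2 and 24.9 at E19.5. Adult LG was above both embryonic groups without overlap, and the spheres spread more widely than all tissue libraries together. The log2 fold change against adult LG was -1.78 ± 0.25, adjusted p = 4.4e-04 at E17.5 and -1.14 ± 0.25, adjusted p = 0.00517 at E19.5, calls that were lost with values scaled to recovered reads. Day 7 spheres gave -0.28 ± 0.58, adjusted p = 0.728.

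Cxcl14, a ligand made by epithelial and stromal cells, was at 52.6, 100.6 and 193.5 FPKM in adult LG, 23.2, 23.4 and 15.3 at E17.5 and 9.58, 7.79 and 8.44 at E19.5. The sphere libraries held 4.89 and 9.12 FPKM on day 5, 5.26, 5.74 and 2.75 on day 7, 1.73, 4.19 and 4.56 on day 10 and 1.41, 4.98 and 14.6 on day 14. The adult libraries were above all others and did not overlap with either embryonic group, nor did the embryonic groups overlap. It was lower than in adult LG at E17.5 (-2.26 ± 0.41, adjusted p = 0.00175), at E19.5 (-3.41 ± 0.41, adjusted p = 2.0e-04) and in day 7 spheres (-4.24 ± 0.50, adjusted p = 0.00158), and the first of these calls was lost with values scaled to recovered reads. Cxcl16, a transmembrane ligand and scavenger receptor, was at 0.823, 0.94 and 1.52 FPKM in adult LG, 0.128, 0.103 and 0.207 at E17.5, 0.416, 0.258 and 0.211 at E19.5 and between 0.559 and 2.51 in spheres. It was lower than in adult LG at E17.5 (-0.86 ± 0.16, adjusted p = 0.00186) and E19.5 (-0.68 ± 0.16, adjusted p = 0.00623), and day 7 spheres gave 0.22 ± 0.24, adjusted p = 0.504. Ccl25, the thymic and intestinal ligand of Ccr9, was between 1.23 and 1.57 FPKM in adult LG, between 0.906 and 1.11 at E17.5, between 0.36 and 0.906 at E19.5 and between 0.68 and 1.79 in spheres, and was lower at E19.5 than in adult LG (-0.60 ± 0.16, adjusted p = 0.0116). Ccl20, which attracts Ccr6-bearing dendritic cells and T cells, was at 0.166 and 0.519 FPKM on day 5, 2.13, 0.63 and 0.864 on day 7, 0.477, 3.65 and 1.46 on day 10 and 4.66, 5.38 and 3.3 on day 14, against values between 0.583 and 0.738 in adult LG and between 0.0905 and 1.33 in embryonic LG. Its 3 day 14 libraries were above all tissue libraries.

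Of the 12 inflammatory CC ligands, Ccl9 had the highest mean. Ccl9 (chr11:83572919-83578636), a ligand of Ccr1, was at 119.0, 160.7 and 236.7 FPKM in adult LG, 1.82, 1.74 and 1.97 at E17.5 and 8.11, 7.27 and 7.91 at E19.5. In spheres it was at 2.05 and 0.678 FPKM on day 5, 3.83, 0.168 and 0.807 on day 7, 6.68, 0.384 and 0.949 on day 10 and 6.93, 3.62 and 24.2 on day 14. The 3 tissue groups did not overlap, with E17.5 lowest and adult LG highest. The log2 fold change was -5.87 ± 0.23, adjusted p = 4.5e-07 for E17.5 against adult LG, -4.25 ± 0.23, adjusted p = 2.6e-06 for E19.5 against adult LG and 1.62 ± 0.23, adjusted p = 0.0175 for E19.5 against E17.5. Day 7 spheres were lower than adult LG, at -6.26 ± 0.55, adjusted p = 5.9e-04. Ccl6, its neighbour on chromosome 11, was at 7.16, 11.6 and 15.1 FPKM in adult LG, 1.72, 2.49 and 3.9 at E17.5, 6.37, 5.7 and 6.46 at E19.5 and between 0.249 and 9.14 in spheres. It was lower at E17.5 (-1.72 ± 0.28, adjusted p = 0.00105) and in day 7 spheres (-2.78 ± 0.33, adjusted p = 0.00165) than in adult LG, and the E17.5 call was lost with values scaled to recovered reads and by limma-voom.

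Several monocyte- and eosinophil-attracting ligands were highest at E19.5. Ccl7 was at 3.53, 5.31 and 10.1 FPKM at E17.5, 36, 58.9 and 91.3 at E19.5 and 3.11, 10.6 and 5.57 in adult LG, and at 0 to 0.901 in spheres. The E19.5 libraries lay above all others, by 3.11 ± 0.49, adjusted p = 0.0236 against E17.5 and 3.12 ± 0.49, adjusted p = 8.4e-04 against adult LG. Ccl2, the main ligand of Ccr2, was at 0.113, 0.0912 and 0 FPKM at E17.5, 2.11, 4.1 and 4.93 at E19.5 and 0.364, 0.831 and 0.922 in adult LG, and was listed at 0 in 10 of the 11 sphere libraries. It was again highest at E19.5, by 2.09 ± 0.25, adjusted p = 0.00924 against E17.5 and 1.43 ± 0.25, adjusted p = 0.00148 against adult LG. Ccl12, another Ccr2 ligand, was at 5.27, 4.64 and 4.89 FPKM at E17.5, 18.3, 31.5 and 41.5 at E19.5 and 0, 2.94 and 4.15 in adult LG, and was listed at 0 in every sphere library. E19.5 exceeded adult LG by 3.45 ± 0.56, adjusted p = 0.00107. Against E17.5 the difference was 2.33 ± 0.56, adjusted p = 0.0893, although these 2 groups did not overlap.

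Ccl24, an eotaxin that attracts eosinophils through Ccr3, was at 3.18, 3.28 and 3.76 FPKM at E17.5, 5.92, 6.44 and 9.35 at E19.5 and 0.96, 0.974 and 0.709 in adult LG, and was listed at 0 in all sphere libraries. Both embryonic stages exceeded adult LG, by 1.23 ± 0.17, adjusted p = 4.6e-04 and 2.11 ± 0.17, adjusted p = 2.8e-05, without overlap. Ccl11, the other eotaxin, was at 36.9, 32.4 and 38.9 FPKM at E17.5, 62.5, 72.5 and 84.6 at E19.5, 26.8, 47.5 and 114.4 in adult LG and between 0 and 1.78 in spheres. Its embryonic values lay inside the range of the adult libraries (-0.54 ± 0.44, adjusted p = 0.324 and 0.45 ± 0.44, adjusted p = 0.409), and the spheres were lower than adult LG, at -5.18 ± 0.58, adjusted p = 0.00135. Ccl5, a T cell and monocyte attractant made by T cells and epithelium, was at 9.5, 16.4 and 13.7 FPKM in adult LG, between 0.119 and 0.669 in embryonic LG and between 0 and 3.89 in spheres. Adult LG exceeded every other library, and the log2 fold change was -3.21 ± 0.22, adjusted p = 8.5e-06 at E17.5, -3.48 ± 0.22, adjusted p = 6.6e-06 at E19.5 and -2.80 ± 0.40, adjusted p = 0.00304 for day 7 spheres. Ccl8 was at 7.3, 13.6 and 6.67 FPKM in adult LG, 0.252, 0.203 and 0.245 at E17.5, 1.34, 0 and 0.748 at E19.5 and between 0 and 0.659 in spheres. It was lower than in adult LG at E17.5 (-2.98 ± 0.34, adjusted p = 1.3e-04) and E19.5 (-2.61 ± 0.34, adjusted p = 3.0e-04), and was listed at 0 in the 3 day 7 libraries. Ccl1 and Ccl4 stayed at or under 1.29 FPKM.

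Cxcl10 and Cxcl9 are induced by interferons and attract T cells through Cxcr3. Cxcl10 was at 7.25, 5.11 and 9.16 FPKM at E17.5, 14.4, 45.8 and 72 at E19.5, 3.68, 5.6 and 6.87 in adult LG and between 0.341 and 4.92 in spheres. E19.5 was above the other tissues in all 3 libraries, by 2.59 ± 0.52, adjusted p = 0.00304 against adult LG, and by 2.23 ± 0.52, adjusted p = 0.0780 against E17.5. Without adult LG replicates 1 and 2 the adult difference was 2.25 with an adjusted p of 0.0706. Day 7 spheres were lower than adult LG (-1.78 ± 0.35, adjusted p = 0.00984), a call lost with values scaled to recovered reads and by limma-voom. Cxcl9 was at 1.1, 0.837 and 1.91 FPKM in adult LG, 0.0426, 0.103 and 0.29 at E17.5, 0.265, 1.07 and 1.06 at E19.5 and 0 to 0.0399 in spheres, and was lower than in adult LG at E17.5 (-0.97 ± 0.25, adjusted p = 0.00962) and at day 7 (-1.15 ± 0.22, adjusted p = 0.00936).

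Of the lymphoid and homing ligands, Cxcl13, which attracts B cells through Cxcr5, was at 13.9, 10.9 and 21.4 FPKM at E17.5, 36.8, 43.7 and 68 at E19.5, 1.08, 5.76 and 13 in adult LG and 0 to 0.489 in spheres. The 3 adult values spread widely, and E19.5 lay above all of them (3.07 ± 0.62, adjusted p = 0.00315), while E17.5 overlapped with them (1.44 ± 0.62, adjusted p = 0.0775). Day 7 spheres were lower than adult LG, at -2.50 ± 0.65, adjusted p = 0.0258, a call lost without any day 7 library or without adult LG replicate 2 (adjusted p 0.0739 to 0.0814). Ccl22, a dendritic cell ligand of Ccr4, was at 3.39, 4.88 and 1.97 FPKM in adult LG and at or under 0.111 in every other library. Its log2 fold change was -2.00 ± 0.23, adjusted p = 1.4e-04 at E17.5 and -2.06 ± 0.23, adjusted p = 1.3e-04 at E19.5, and it was listed at 0 at day 7. Xcl1, the lymphocyte ligand of Xcr1, was at 2.38, 4.82 and 2.51 FPKM in adult LG and listed at 0 in all 17 other libraries, and no fold is given against values listed at 0. Ccl17, the other Ccr4 ligand, stayed at or under 1.61 FPKM and was not called in any comparison. A scaffold copy of Ccl21a was at 1.6 and 6.71 FPKM in E17.5 replicates 1 and 2 and at 0 in the third, while each other copy of Ccl21a, Ccl21b and Ccl21c was at or under 0.147 FPKM.

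Cxcr4, the receptor that retains stem and immune cells near their ligand Cxcl12, was the highest receptor in every tissue. Cxcr4 (chr1:128588199-128592293) was at 21.8, 37.3 and 27.7 FPKM in adult LG, 24.3, 25.5 and 16.8 at E17.5 and 16.3, 16.6 and 18.8 at E19.5. In spheres it was at 0.195 and 0.897 FPKM on day 5, 0.597, 0.424 and 0.865 on day 7, 1.69, 0.215 and 3.2 on day 10 and 4.72, 1.24 and 4.79 on day 14. The 11 sphere libraries were all under the 9 tissue libraries, and day 7 was lower than adult LG, at -4.18 ± 0.26, adjusted p = 1.9e-04, a call kept under every alternative. Between tissues the sign depended on the scaling. As deposited, the log2 fold change was -0.36 ± 0.23, adjusted p = 0.215 at E17.5 and -0.69 ± 0.23, adjusted p = 0.0311 at E19.5, and with values scaled to recovered reads it was 0.61 (adjusted p = 0.158) and 0.17 (adjusted p = 0.696). The E19.5 call was also lost without adult LG replicate 2 or any E19.5 library (adjusted p 0.0561 to 0.0970). Cxcl12 was listed at 0 in all 20 libraries and in the passage 10 library, so the pair cannot be read together here.

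Most other signalling receptors are carried mainly by leukocytes. Cx3cr1, the receptor of Cx3cl1 on macrophages, was at 3.96, 7.28 and 8.47 FPKM in adult LG, 5.14, 5.5 and 5.1 at E17.5, 4.95, 4.77 and 4.72 at E19.5 and 0 to 0.0801 in spheres. The embryonic and adult values overlapped (-0.22 ± 0.22, adjusted p = 0.425 at E17.5 and -0.33 ± 0.22, adjusted p = 0.247 at E19.5), and the 3 day 7 libraries were listed at 0. Ccr7, which guides dendritic cells and T cells to lymph nodes, was at 7.33, 14.2 and 6.23 FPKM in adult LG and at or under 0.39 in all other libraries. It differed by -2.93 ± 0.26, adjusted p = 3.2e-05 at E17.5, -2.93 ± 0.26, adjusted p = 3.8e-05 at E19.5 and -3.07 ± 0.32, adjusted p = 9.7e-04 at day 7. Ccr8, a receptor of regulatory T cells and skin-homing cells, ran the other way between tissues, with 10.8, 11.6 and 5.74 FPKM at E17.5, 2.92, 2.37 and 3.69 at E19.5 and 0.706, 1.61 and 2.12 in adult LG, and was listed at 0 in all sphere libraries. E17.5 exceeded adult LG without overlap (2.06 ± 0.30, adjusted p = 5.5e-04), while E19.5 gave 0.72 ± 0.30, adjusted p = 0.0732 against adult LG and -1.34 ± 0.30, adjusted p = 0.0714 against E17.5.

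Ccr1, the receptor of Ccl9 and Ccl7 on monocytes, was at 1.59, 1.39 and 1.68 FPKM at E17.5, 4, 3.85 and 4.99 at E19.5, 0.439, 0.668 and 1.25 in adult LG and 0 to 0.0917 in spheres. E19.5 was above both other tissue groups (1.58 ± 0.18, adjusted p = 1.7e-04 against adult LG and 1.04 ± 0.18, adjusted p = 0.0356 against E17.5), and the call against E17.5 was lost in 7 of 9 fits that left out 1 library (adjusted p 0.0581 to 0.158). The E17.5 difference from adult LG (0.54 ± 0.18, adjusted p = 0.0362) was lost in 7 of 9 fits that left out 1 library, those without adult LG replicate 1 or 2, any E17.5 library or E19.5 replicate 1 or 2 (adjusted p 0.0532 to 0.0998). Ccr2, the receptor of inflammatory monocytes, was at 1.9, 2.38 and 2.91 FPKM in adult LG, between 0.537 and 1.09 in embryonic LG and 0 to 0.0166 in spheres. It was highest in adult LG without overlap, with a log2 fold change at E17.5 of -0.90 ± 0.18, adjusted p = 0.00254, a call lost with values scaled to recovered reads and by limma-voom. Cxcr6, the receptor of Cxcl16 on resident T cells, was at 1.07, 2.94 and 4.48 FPKM in adult LG, between 0.107 and 0.333 in embryonic LG and between 0.0764 and 0.468 in spheres (-1.53 ± 0.31, adjusted p = 0.00311 at E17.5). Cxcr3, the receptor of Cxcl9 and Cxcl10, was at 0.958, 2.55 and 1.44 FPKM in adult LG, 0.446, 0.36 and 0.65 at E17.5, 0.463, 0.514 and 1.03 at E19.5 and 0 to 0.148 in spheres (-0.80 ± 0.24, adjusted p = 0.0198 at E17.5, a call lost without adult LG replicate 2 or E17.5 replicate 1 or 2, with adjusted p 0.0542 to 0.0659). Ccr9 was at 1.74, 1.63 and 0.703 FPKM in adult LG, between 0.0111 and 0.0974 in embryonic LG and between 0.116 and 0.481 in spheres. Neutrophil receptor Cxcr2 stayed at or under 0.554 FPKM in all 20 libraries, and Cxcr1, Ccr3, Ccr4, Ccr6, Cxcr5, Xcr1 and Ccr1l1 at or under 0.9.

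The atypical receptors differed in stage. Ackr2, which takes up inflammatory CC ligands on lymphatic vessels, was at 0.986, 0.531 and 0.959 FPKM at E17.5, 2.3, 1.89 and 2.49 at E19.5 and 0.133, 0.101 and 0.335 in adult LG, and was above 0 in 1 of 11 sphere libraries. The 3 tissue groups did not overlap, and the log2 fold change was 0.61 ± 0.16, adjusted p = 0.0113 for E17.5 and 1.44 ± 0.16, adjusted p = 1.3e-04 for E19.5 against adult LG. Without adult LG replicates 1 and 2 the E17.5 difference was 0.44 with an adjusted p of 0.114. Ackr1, the chemokine carrier of venous endothelium and red cells, was at 1.77, 7.63 and 7.56 FPKM in adult LG, 1.74, 1.18 and 1.51 at E17.5 and 1.95, 2.06 and 1.45 at E19.5, and was listed at 0 in every sphere library. Its E17.5 difference from adult LG (-1.26 ± 0.40, adjusted p = 0.0272) was lost without adult LG replicate 2 or 3 or any E17.5 library (adjusted p 0.0540 to 0.0907). Ackr3 and Ackr4 stayed at or under 0.154 FPKM in these libraries.

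**Figure D3:**
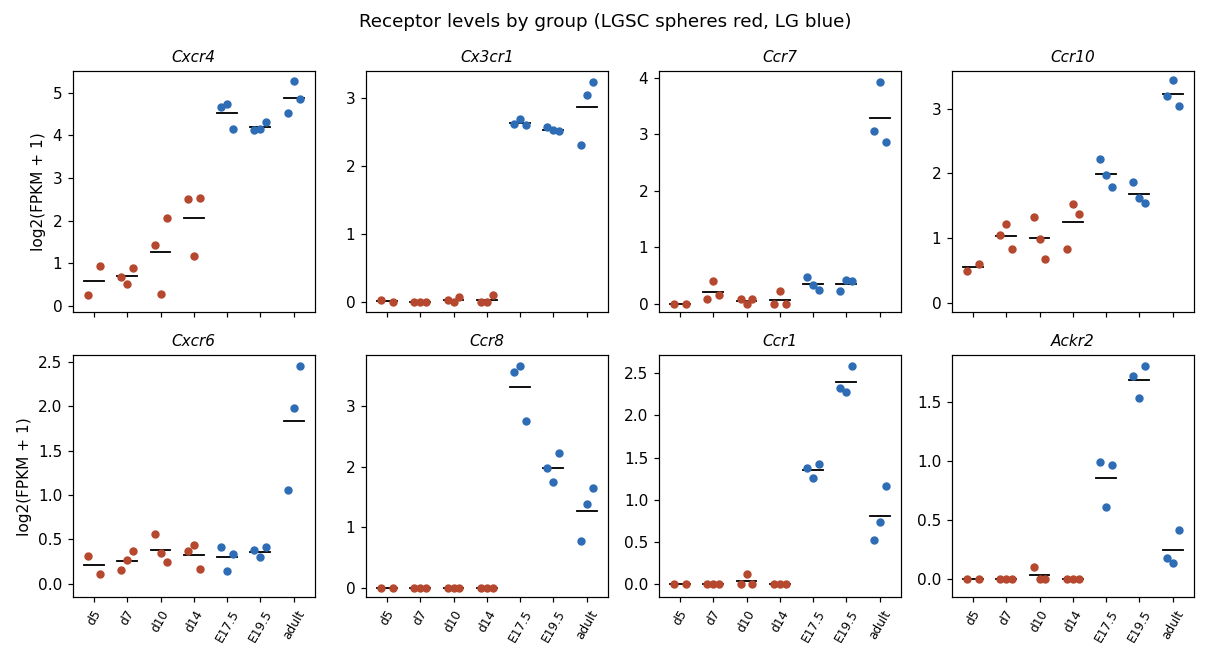
Levels of 8 receptors as log2(FPKM + 1) in each library (points, red for LGSC spheres by culture day and blue for LG by stage) with the group mean (black line), each panel on its own vertical scale. Cxcr4 in spheres reached 4.79 FPKM at most, under the lowest tissue value of 16.3 FPKM, and Ccr8 was highest at E17.5.

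To ask how the chemokine repertoire of the developing gland differed from that of the adult gland, embryonic and adult LG were compared in one limma fit over the 9 tissue libraries. At E17.5 the ligands Ccl28, Ccl9, Cxcl17, Ccl5 and Ccl8 and the receptors Ccr7, Ccr10, Cxcr6, Ccr2 and Cxcr3 were among the members lower than in adult LG, while Ccr8, Ccl24, Ackr2 and Ccr1 were higher. In all, 38 of the 67 members averaged 0.5 FPKM or more and were tested, 4 rose and 20 fell, against 54.0% of all 18578 genes called in this comparison (29.1% higher and 24.9% lower). The tested members had a called share of 63.2% and a median log2 fold change of -0.83, beside 0.05 for all genes, but a member that passed the filter through its adult level alone had to differ, so these shares are a description. With values scaled to recovered reads, 36 members passed the filter. Of these, 7 were higher and 9 lower, against 8450 higher and 1913 lower of all 17408 genes tested. The calls lost there were those of Ackr1, Cxcl2, Cxcl9, Cx3cl1, Cxcr6, Ccr2, Ccl6, Ccr10, Cxcl14 and Cxcr3.

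At E19.5 Ccl12, Ccl7, Cxcl13, Cxcl10, Ccl24, Ccr1, Ackr2, Ccl2 and Cxcl1 were higher than in adult LG, which made 9 members, and 18 were lower, led by Ccl28, Ccl9, Ccl5 and Cxcl14. Of all genes, 54.2% were called (30.3% higher and 23.9% lower), and of the 38 members tested 71.1%. By role, 4 of 9 tested inflammatory CC ligands rose and 3 fell, 6 of 7 epithelial and mucosal ligands fell, and 1 of 10 signalling receptors rose and 7 fell. Scaling to recovered reads gave 12 higher and 10 lower of 36 members that passed the filter, against 46.3% of all genes higher and 10.6% lower. The calls of Cxcl17, Ccl25, Cx3cl1, Cxcr4 (0.17, adjusted p = 0.696), Cxcr6, Ccr2 and Cxcr3 were lost. Both embryonic comparisons used the same adult libraries, so their values are not independent. Ptprc and the leukocyte sum without Cd14 and S100a8 were also lower in embryonic than in adult LG, by the values given above. Adgre1 (14.3 to 18.1 FPKM at E19.5, 7.79 to 18.5 in adult LG) and Csf1r (3.18 to 3.61 and 3.23 to 4.59) overlapped. Of 9 leukocyte markers tested, 8 were lower at E17.5 and 6 at E19.5, beside 24.9% and 23.9% of all genes. The part of these markers in the differences was not tested.

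**Figure D4:**
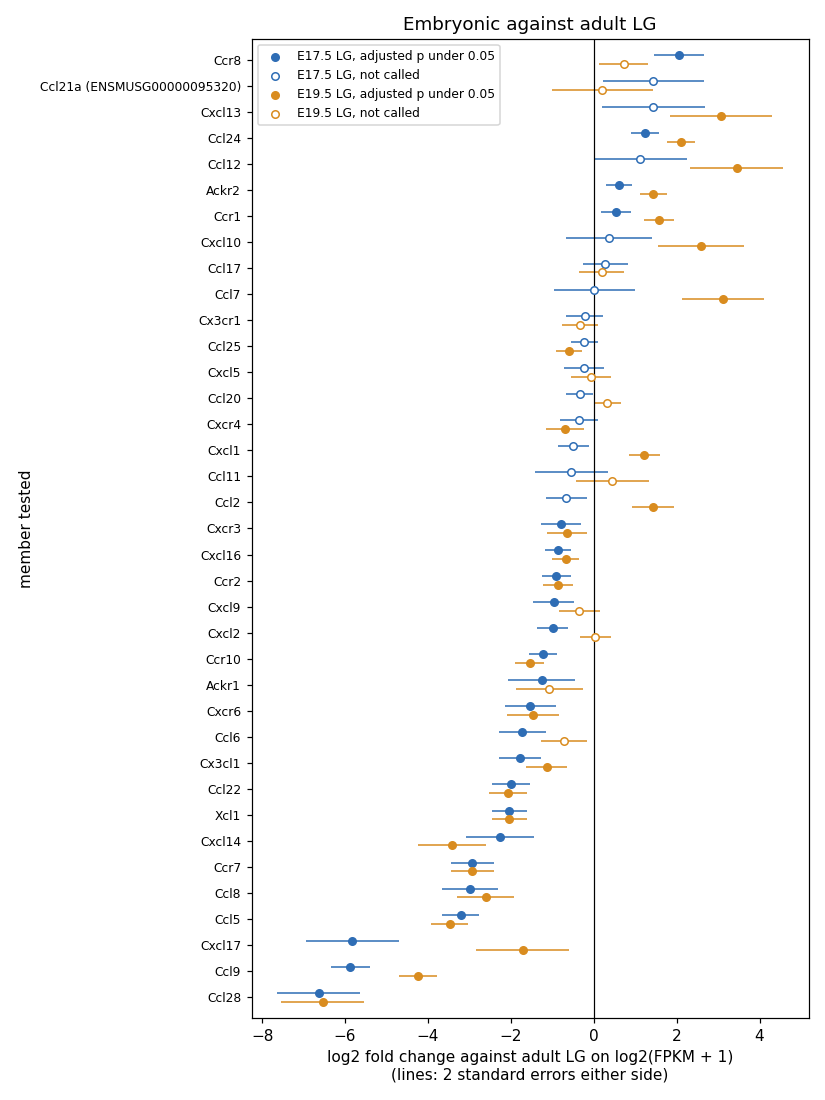
Log2 fold changes on log2(FPKM + 1) against adult LG (horizontal axis) of members tested (rows, in order of the E17.5 value) at E17.5 (blue) and E19.5 (orange), filled where the adjusted p was under 0.05, with lines of 2 standard errors either side. Ccl28, Ccl9 and Cxcl17 lay farthest to the left at E17.5, and Ccl12, Ccl7 and Cxcl13 farthest to the right at E19.5. Xcl1 was listed at 0 in embryonic LG, so its point depends on the pseudocount.

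Between the embryonic stages, every called member was higher at the later stage. Cxcl17, Ccl7, Ccl2, Cxcl1, Ccl9, Cxcl2 and Ccl24 rose from E17.5 to E19.5 together with Ccr1 and Ackr2, by log2 fold changes of 4.12 (Cxcl17) to 0.83 (Ackr2). These were 9 of the 38 members tested (23.7%) and none fell, against 1.74% of all 18578 genes (1.11% higher and 0.624% lower). Lower means that did not pass the test included those of Ccr8 (-1.34 ± 0.30, adjusted p = 0.0714) and Cxcl14 (-1.15 ± 0.41, adjusted p = 0.223). Cxcl1 was called under each alternative tried. The count was 1 without E17.5 replicate 1 or E19.5 replicate 2, 2 without E19.5 replicate 3, 3 without E17.5 replicate 2, 5 without adult LG replicate 2 or E19.5 replicate 1 and 16 (14 higher and 2 lower) without adult LG replicate 3, where 9.43% of all genes were called. With the 2 stages alone it was 18 (16 higher and 2 lower), where 12.4% of all genes were called. Of the 9 fits that left out 1 library, 7 lost the calls of Cxcl2, Ccl24, Ackr2 and Ccr1 (adjusted p 0.0581 to 0.213), 5 that of Ccl9, 4 that of Ccl7, 3 that of Cxcl17 and 2 that of Ccl2. The macrophage marker Adgre1 stood at 5.9, 8.98 and 7.55 FPKM at E17.5 and 14.3, 14.5 and 18.1 at E19.5, and its part in these rises was not tested. Of 9 leukocyte markers tested between these stages, Adgre1 included, 0 were called, and their median log2 fold change was 0.27.

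Spheres at day 7 were set against the adult gland to show which members remain in cultured epithelium. Cxcl5 and Cxcl3 rose and 26 members fell among 35 tested, against 35.2% of all 17698 genes called (14.2% higher and 21.1% lower). All 10 signalling receptors that were tested were called lower, from Cxcr4 (-4.18) to Ccr9 (-0.98 ± 0.24, adjusted p = 0.0216), a call that was lost without day 7 replicate 1 or 3 or adult LG replicate 1 or 2 (adjusted p 0.0583 to 0.0799). Of the members that fell, the receptors Cx3cr1, Ccr8, Ccr2 and Ackr1 and the ligands Xcl1, Ccl22 and Ccl8 were listed at 0 in every passage 2 day 7 library. The size of those falls depends on the pseudocount, and a value listed at 0 can be a failed estimate. The epithelial ligands split, with Ccl28, Cxcl14 and Cxcl17 lower and Cx3cl1, Cxcl16, Ccl20 and Ccl25 not called. A member high in adult LG alone passed the filter through those libraries and had to differ, so the count is a description. Scaled to recovered reads, fewer members passed the filter (30). Of these, 2 were higher and 17 lower, against 33.4% of all genes higher and 10.7% lower. The calls of Cxcl2, Cxcl10, Cxcl13, Cxcl17 and Cxcr6 were lost, and members under the filter there were not tested. In the spheres the endothelial and fibroblast sums stayed at or under 1.41 FPKM, and of the 17 leukocyte markers Cd14 reached 370.7, Cd79a 2.63 and S100a8 2.25 FPKM and each of the others stayed at or under 0.551. The part of these markers in the falls was not tested. The same 3 adult libraries served here as in the embryonic comparisons.

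Over culture time few members were called. Between day 7 and day 14 none of 18 members tested was called, as for all 15744 genes (0% called by limma), and 3 had an unadjusted p under 0.05, namely Ccl20 (log2 fold change 1.34 ± 0.30, adjusted p = 0.434), Cxcr4 (1.38 ± 0.40, adjusted p = 0.440) and Ccl9 (2.17 ± 0.76, adjusted p = 0.469). Limma-voom on recovered reads also called 0, with 5 at an unadjusted p under 0.05. The study listed genes that differed between these days by DESeq2, a count test. The absence of calls here therefore does not show that the spheres were unchanged. Same-numbered libraries of these 2 days correlated (mean r 0.37). With the replicate number as a block, limma again called 0, with 9 of 18 members at an unadjusted p under 0.05. In a linear slope over days 5 to 14, only Ccl20 was called among 18 members (0.208 ± 0.0426 log2 per day, adjusted p = 0.0355), against 2.14% of all 15584 genes (0.648% higher and 1.50% lower). That call was lost without any of 8 of the 11 libraries, both of day 5 and all of day 14 among them, with day 7 replicates 2 and 3 and day 10 replicate 3 (adjusted p 0.0566 to 0.104). Libraries of one replicate number deviated together across days, and with the replicate number as a block 4 members were called, Cxcl17 (adjusted p = 0.00605), Cxcl5 (0.0114), Cx3cl1 (0.0165) and Ccl20 (0.0246), each rising with culture day, against 5.02% of all genes in that fit (2.12% higher and 2.91% lower).

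Cxcl17, Cxcl5, Cx3cl1 and Cxcl3 differed between replicate numbers, while Ccl20 did not pass this test (adjusted p = 0.724). In a test of the replicate number with day as a factor, chosen after the values were seen, 4 of 18 members were called (22.2%), against 9.36% of all 15584 genes. On the log2 scale, replicate 2 minus replicate 1 was -4.64 for Cxcl17 (adjusted p = 2.3e-04), -2.46 for Cxcl5 (adjusted p = 0.00248) and -1.94 for Cx3cl1 (adjusted p = 0.00147), and 1.07 for Cxcl3 (adjusted p = 0.0454). Replicate 3 differed from replicate 1 by -0.55, 0.01, -0.44 and 0.40 for these genes. The labels do not say what a replicate number stands for, so a culture, a batch or an animal cannot be told apart.

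**Figure D5:**
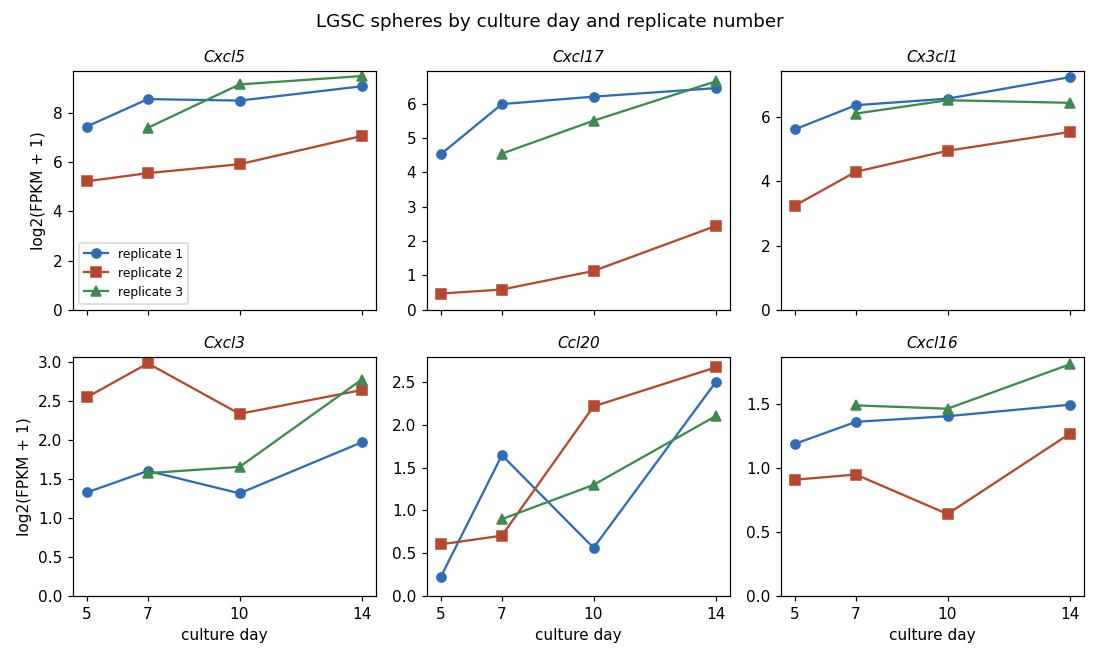
Levels of 6 ligands as log2(FPKM + 1) against culture day in LGSC spheres, with 1 line for each replicate number (replicate 3 had no day 5 library). Replicate 2 ran under the others for Cxcl5, Cxcl17 and Cx3cl1 on every day, and the lines of Ccl20 ended higher than they began.

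The chemokine relatives outside the symbol rule and the signalling machinery were given by lists. Ppbp, an ELR ligand of platelets, was at 29.7, 52.5 and 14.1 FPKM in day 7 spheres, 0.383, 0.291 and 0.605 in adult LG and between 0.346 and 1.29 in embryonic LG. Day 7 exceeded adult LG by 4.36 ± 0.45, adjusted p = 1.0e-03, so that passage 2 spheres held Ppbp beside Cxcl5 and Cxcl3. Pf4, its platelet and macrophage neighbour, was at 59.7, 80.4 and 75.7 FPKM at E17.5, 188.4, 206.7 and 240.4 at E19.5 and 5.17, 7 and 16.4 in adult LG, higher than in adult LG by 2.93 ± 0.35, adjusted p = 1.6e-04 and 4.48 ± 0.35, adjusted p = 1.9e-05. Of the 6 relatives, 5 were tested. At each embryonic stage 3 rose and 1 fell (80.0%, beside 54.0% and 54.2% of all genes), while 2 rose and 3 fell at day 7 (beside 35.2%). Of 24 transducers, 21 were tested in tissues, of which E17.5 had 6 above and 6 below adult LG and E19.5 had 6 above and 7 below. These shares of 57.1% and 61.9% stand beside 54.0% and 54.2% of all genes. Of 18 transducers tested at day 7, 2 rose and 11 fell (72.2%, beside 35.2% of all genes). The called transducers included Gng2 (G protein gamma subunit, 2.21 at E17.5) and Arrb1 (beta-arrestin, -1.70 at E17.5 and -3.57 at day 7). Of 10 inducers, 5 were tested in tissues, and 3 were lower at E17.5 and 2 at E19.5. Il1b was at 18.5, 21.2 and 30.3 FPKM in adult LG and between 0.472 and 3.01 in embryonic LG (-3.67 ± 0.34, adjusted p = 4.4e-05 at E17.5). Il1a was at 7.61, 26.7 and 20.6 FPKM on day 7 and 3.57, 2.56 and 2.13 in adult LG, higher in spheres by 2.22 ± 0.45, adjusted p = 0.0113. Of 8 proteases and binders, 6 were tested in tissues with 2 higher and 3 lower at each embryonic stage, and of 5 tested at day 7, 2 were higher and 1 lower, the last being Dpp4, which trims chemokine ends (-5.60 ± 0.66, adjusted p = 0.00161). Between the embryonic stages and between culture days no gene of these 4 lists was called.

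The members not named with values so far were low. In all, 16 members were above 0 somewhere without reaching a mean of 1 FPKM in any group. The 11 listed at 0 in every library were Cxcl12, Ccl3, Ccl26, Ccl21c, Ccl27b, both copies of Ccl19, and copies of Ccl21a, Ccl21b and Ccl27. Of 5333 genes at 10 FPKM or more in the passage 10 library, 611 (11.5%) were listed at 0 in all 11 sphere libraries, so a value of 0 in these tables does not show that the RNA was absent.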

How the data were processed

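The authors' deposited files held FPKM values per gene for each library. According to the submitters' processing notes, reads had been called with CASAVA 1.8, aligned with HISAT2 2.0.5 and counted with featureCounts 1.5.0-p3, and the step from counts to FPKM is not given in the sources used here. The labels name the build NCBIM37, whereas 52489 of the 52636 gene identifiers matched GENCODE M21 (GRCm38), whose coordinates are given. FPKM values are not counts, so the count test of the study was not used on them. A version rescaled to recovered reads was tried, because the deposited scale and the reads differed between libraries. Multiples of the value of 1 read were whole, within 0.01 of a whole number, for 92.6% to 93.6% of the values tested, and these recovered reads were used for the depth and for limma-voom. No column belonged to another series (0 columns).

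Values were analysed as log2(FPKM + 1), which understates the change of low genes, with limma 3.58.1 in R 4.3.3. A gene was tested when it averaged 0.5 FPKM or more across a fit, and p-values were adjusted over all genes by the Benjamini-Hochberg method at a threshold of 0.05. Tissue comparisons used the 9 tissue libraries in one fit, day 7 against adult LG those 6 libraries, day 14 against day 7 those 6, and the slope the 11 LGSC libraries. In the LGSC libraries the deviations of same-numbered libraries correlated in every pair (r 0.26 to 0.72, mean 0.46 over 15 pairs), so blocked values are given beside the slope. In tissues the correlations averaged -0.06 to 0.04 and the numbers were not taken as pairs. The fits were tested on simulated data. Tables were read with pandas 2.3.3 under Python 3.11.15, and plots drawn by matplotlib 3.10.9 with numpy 2.4.6.

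The members and gene lists were chosen with earlier results of these data known. Values were given for members that averaged 1 FPKM or more in some group and either passed the threshold in some comparison or had one of the 12 highest group means, and for Cxcr4. Where members lay low in spheres or embryonic LG, a range replaced the value of every library. A few members outside the rule were named after their values were seen. Other pathway genes were named from fixed lists, among up to 4 with the largest change. One passage 10 library is given by value only. The P6 and P20 libraries and LGSC day 5 replicate 3 were not analysed here. One member is counted but not reported here by value.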

Additional observations from a re-analysis of the deposited data

Results flagged for a closer look

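The single passage 10 sphere library, taken at day 7 and outside every comparison, held 5 members at 1 FPKM or more that exceeded the highest day 7 passage 2 library by over 10 times. Cxcl1 was at 48.6 FPKM there, against 0.238 to 0.864 in the 3 day 7 libraries of passage 2. Cxcl2 was at 42.8 FPKM, against 0.157 to 0.27. Cxcl16 was at 40.1 FPKM, against 0.931 to 1.81. Ccl2 was at 7.83 FPKM, against libraries listed at 0. Ackr3 was at 3.64 FPKM, against 0 to 0.115. The flag looked only for higher values, and some members were lower there. Cxcl3 was at 0.24 FPKM, against 1.98 to 6.91, and Cxcr4 was listed at 0, against 0.424 to 0.865. Recovered reads numbered 25181804 in the passage 10 library, against 6434734 to 9258020 in the passage 2 and tissue libraries. It has no replicate and lists other genes than the rest, so these differences were not tested.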

How the results depend on the processing

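The count of 9 members called between E19.5 and E17.5, all higher at E19.5, moved most: it was 5 with no filter on low FPKM, 4 scaled to recovered reads, 5 scaled by the median ratio, 3 by limma-voom on recovered reads, 5 with the replicate block and 18 (16 higher) with only these groups fitted, and ranged from 1 to 16 (14 higher) with single libraries left out. The 1 member called for the slope became 0 with no filter, 0 over days 7, 10 and 14 only, 0 with replicates 1 and 2 only and 4 with the replicate block, and was 0 to 1 with single libraries left out. Cxcr4 changed sign against adult LG, from -0.36 to 0.61 (scaled to recovered reads) and 0.62 (limma-voom) at E17.5, and from -0.69 to 0.17 and 0.16 at E19.5. The counts of 24, 27 and 28 members (E17.5, E19.5 and day 7 against adult LG) ranged from 16 to 26, 21 to 29 and 19 to 30 over all alternatives, the lowest at E17.5 and day 7 being those scaled to recovered reads and the lowest at E19.5 that of limma-voom, and 12, 18 and 21 of these calls held under every alternative that tested the gene. Day 14 against day 7 stayed at 0 in each alternative, and the replicate number at 3 to 5 members. The cause was not tested. Depth limits members under 1 FPKM, a value listed at 0 can be a failed estimate, and a low value is uncertain too.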
